A study of Mus musculus with 23 samples.

Results

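The Cish and suppressor of cytokine signaling (SOCS) genes were followed in cells from the spleen, lymph node (LN) and bone marrow (BM) of mice with an altered STAT5B protein. The 8 members, Cish and Socs1 to Socs7, were taken by gene symbol from the 32285 genes of the single-cell count tables, a choice made with earlier results of these data known. Transcripts, counted as unique molecular identifiers (UMIs), were summed per library and per class of cells, and genotypes were compared within each tissue.

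Cytokines that bind receptors such as those of interleukin 2, interleukin 3 or erythropoietin activate Janus kinases (JAKs), which phosphorylate STAT5A and STAT5B. Phosphorylated STAT5 dimers bind DNA and switch on genes that include members of the Cish and SOCS family. The encoded proteins then dampen the same receptors, which is why their transcripts serve as a readout of STAT5 activity. All family members carry an SH2 domain, which binds phosphorylated tyrosine, and a SOCS box, which recruits elongins and a cullin ubiquitin ligase. CIS, the product of Cish, occupies STAT5 docking sites on receptors. SOCS1 and SOCS3 also inhibit JAKs directly, and SOCS2 is best known as a brake on growth hormone signaling. SOCS4 to SOCS7 are less well described, and have mostly been studied downstream of receptor tyrosine kinases.

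The mice were C57BL/6 animals by the labels (C57BL/6N in the methods of the study), 2 months old, with wild-type (WT) Stat5b or with 1 changed tyrosine of STAT5B, replaced by phenylalanine (Y665F) or by histidine (Y665H). The LN was sampled in 2 WT, 3 Y665F het and 2 Y665F homo libraries. The BM had 2 libraries for each of WT, Y665H and Y665F. Spleen had 1 library each of WT, Y665H and Y665F, made from CD45+ cells. A figure legend of the study describes 1 combined sample of several mice per group, under a title that names spleen and a panel text that names lymph nodes. The alleles are germline changes, so all blood cells of a mouse carry them; Y665F was made with Cas9 and a donor oligonucleotide, and Y665H by base editing. Zygosity is in the labels of the LN libraries alone. Nothing in them says whether replicates were separate mice. In BM the sex transcripts described below differ between replicates 1 and 2 of each genotype, so those came from different animals. The p-values measure the spread between these libraries, which may be partly technical and in BM also holds differences of animal and sex.

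Cell classes were gates on marker transcripts, and levels are CPM, the UMIs of a gene per 1 M UMIs of that class in that library. Kept barcodes per library were 4237 to 18711 in BM (16.1 to 55.6 M UMIs), 4604 to 9216 in LN (2.37 to 16.1 M) and 5028 to 8018 in spleen (36.6 to 47.0 M). Among the LN libraries, Y665F het replicate 3 and Y665F homo replicate 1 stood apart with medians of 410 and 436 UMIs per barcode. By Xist and Ddx3y transcripts, replicate 1 of each BM genotype was female-like and replicate 2 male-like, so sex and replicate number cannot be told apart there. Pairs of libraries shared at most 2.89% of their barcodes in BM, 1.56% in LN and 0.342% in spleen. Calls were made with the edgeR quasi-likelihood test where the p-value, adjusted by Benjamini-Hochberg over all genes tested in the class, was under 0.05. Apart from the number of Socs2 UMIs per Cish UMI within Y665F libraries, levels were compared within a gene only, and not between members.

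Cish (ENSMUSG00000032578) lies on the plus strand of chromosome 9 (GRCm38, chr9:107296026-107302784). The reference promoter windows (RefSeq, GRCm38.p6, 250 bases before to 50 bases after the gene start) were searched for TTCNNNGAA, the palindromic letters that STAT5 dimers bind, which read the same on both strands. Windows of Cish, Socs1, Socs3 and Socs4 were listed, 4 of the 8 members. The windows of Cish and Socs3 are shown because these held a match, in capitals.

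Cish promoter, chr9:107296409-107296708, plus strand: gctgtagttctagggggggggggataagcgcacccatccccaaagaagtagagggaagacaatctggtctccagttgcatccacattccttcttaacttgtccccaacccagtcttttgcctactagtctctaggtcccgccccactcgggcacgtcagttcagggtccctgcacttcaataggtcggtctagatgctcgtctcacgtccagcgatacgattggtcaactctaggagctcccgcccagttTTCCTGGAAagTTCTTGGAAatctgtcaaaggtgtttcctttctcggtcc

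Socs3 promoter, chr11:117969317-117969616, minus strand: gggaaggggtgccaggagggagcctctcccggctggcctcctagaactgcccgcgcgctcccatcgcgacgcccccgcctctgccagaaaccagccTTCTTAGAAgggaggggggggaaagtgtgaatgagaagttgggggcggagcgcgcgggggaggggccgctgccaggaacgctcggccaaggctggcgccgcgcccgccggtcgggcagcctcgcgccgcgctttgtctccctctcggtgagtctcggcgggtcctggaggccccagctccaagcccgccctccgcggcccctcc

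The gene starts of these windows are those of RefSeq. For Cish and Socs3 they lie inside the gene spans printed here, which come from the GENCODE annotation and begin further upstream. Counted from the RefSeq start, the Cish window held 2 matches, at the first base and 11 bases further on. The Socs3 window held 1, starting 154 bases before the RefSeq start, and the windows of Socs1 (chr16:10785487-10785786, minus strand) and Socs4 (chr14:47276670-47276969, plus strand) held none. Of all 32851 windows of the same length, 8.3% held at least 1 match and 0.457% at least 2. A match describes letters in a window and says nothing of binding in these cells.

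Cish was higher in Y665F than in WT in the stem, granulocyte-monocyte and erythroid progenitors of the BM, where the difference passed the test, by about 2.5 to 3.0 on the log2 scale. In each of these classes Cish met the count filter only through its Y665F libraries, so its calls are a description. In the gate for stem and multipotent progenitors (marked by Hlf, Mecom, Procr and Meis1), Cish stood at 12.0 and 8.68 CPM in the WT libraries, 13.7 and 9.5 CPM in those of Y665H, and 62.1 and 46.8 CPM in those of Y665F. Both Y665F libraries lay well above all 4 others, which overlapped. The log2 fold change against WT was 2.51 ± 0.50 (SE, n = 2 each, edgeR adjusted p = 0.0197). The WT and Y665H sums rested on 2 to 5 Cish UMIs per library, against 280 and 203 in Y665F. Without WT replicate 2 the adjusted p was 0.0504, without Y665F replicate 1 it was 0.0741, and with no filter on low counts it was 0.682 (2.59).

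In granulocyte-monocyte progenitors, which make the granule enzymes of neutrophils and monocytes, Cish was at 2.52 and 1.64 CPM in the WT libraries, 1.41 and 0.581 CPM in those of Y665H, and 10.1 and 15.3 CPM in those of Y665F. The Y665F libraries again stood apart from the rest, with 61 and 68 UMIs where no other library had more than 4. The log2 fold change was 2.53 ± 0.56 (edgeR adjusted p = 0.0048), and it lost the call without WT replicate 2 (adjusted p = 0.100) or without Y665F replicate 2 (adjusted p = 0.055). In erythroid progenitors, the precursors of red cells, Cish was at 0.799 and 0.658 CPM in the WT libraries, 0.619 and 1.67 CPM in those of Y665H, and 6.01 and 8.35 CPM in those of Y665F. WT and Y665H overlapped and Y665F did not overlap with either. This was the class with the largest fitted change of Cish, a log2 fold change of 3.02 ± 0.56 (edgeR adjusted p = 0.000699), and the call held in all 16 alternatives run.

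In the 3 other marrow classes the sums were smaller or the spread wider. B lineage cells held Cish at 15.0 and 8.70 CPM in the WT libraries, 6.17 and 5.55 CPM in those of Y665H, and 37.4 and 31.1 CPM in those of Y665F. Here too Cish met the count filter only through its Y665F libraries, with 1 WT library also above the filter level of 12.3 CPM, so its values are a description. The Y665F libraries were the highest, but the log2 fold change of 1.67 ± 0.46 did not pass the test (edgeR adjusted p = 0.0739). It passed without WT replicate 1 (1.78, adjusted p = 0.0438) and with no filter on low counts (1.63, adjusted p = 0.0408). Megakaryocyte lineage cells, the source of platelets, held 0 and 1 Cish UMI in WT, 2 and 0 in Y665H, and 59 and 27 in Y665F. That is a pooled Y665F to WT ratio of 8.24, with a counting interval of 1.44 to 329. Monocyte lineage cells held 1 and 0 Cish UMIs in WT, 0 and 0 in Y665H, and 2 and 6 in Y665F (ratio 5.11, counting interval 0.685 to 227). Cish passed the count filter in neither class and was not tested there.

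Classes with fewer than 20 barcodes in some library were not tested. In basophil and mast cell progenitors no Cish UMI was seen in WT or Y665H, against 9 and 4 in Y665F, at least 1.22-fold higher than a floor of 3 counts over both WT libraries. The exact interval of that ratio begins at 0.857, so a difference was not detectable at this depth. Over all BM barcodes, Cish was at 3.60 and 3.40 CPM in the WT libraries, 1.85 and 2.43 CPM in those of Y665H, and 26.7 and 26.9 CPM in those of Y665F. The Y665F to WT ratio of these sums was 7.72 (95% counting interval 6.56 to 9.15), and it holds any change in the mix of cells together with changes within cells.

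**Figure D1:**
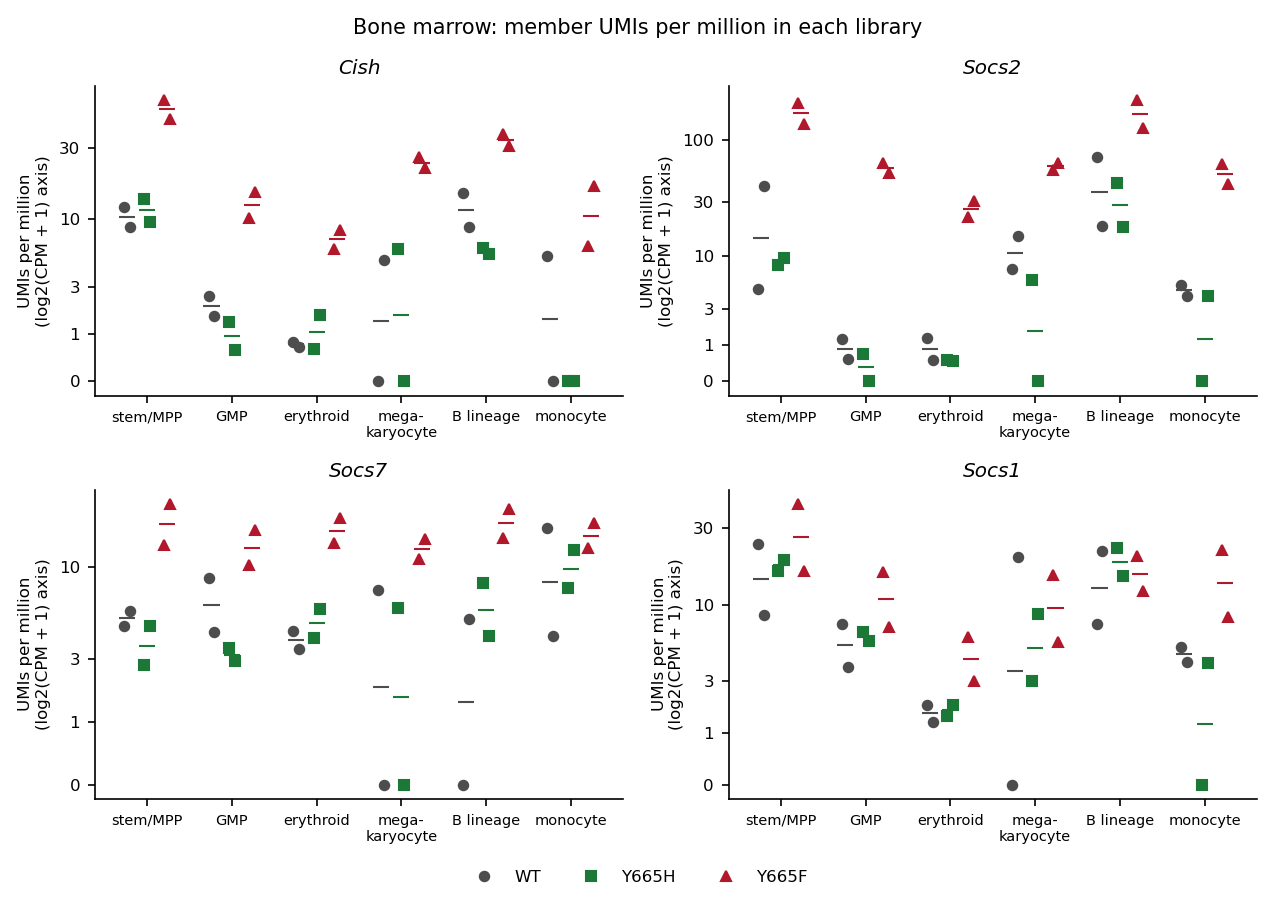
Levels of Cish, Socs2, Socs7 and Socs1 in 6 gated classes of BM cells. The y axis gives CPM on a log2(CPM + 1) scale, each point is 1 library (2 per genotype) and short lines are means on that scale. For Cish and Socs2, both Y665F points lie above every WT and Y665H point in the classes shown. This order is a description, and the share of all genes with it was not counted. Cish in monocyte lineage cells rests on 2 and 6 UMIs in the Y665F libraries.

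Socs2 (ENSMUSG00000020027, GRCm38 chr10:95385362-95417180, minus strand) was called in more marrow classes than any other member, and was higher in Y665F than in WT in all 6 classes tested. In all of them but the B lineage cells Socs2 met the count filter only through its Y665F libraries, so those calls are a description. In stem and multipotent progenitors Socs2 was at 4.79 and 40.5 CPM in the WT libraries, 8.24 and 9.5 CPM in those of Y665H, and 203 and 135 CPM in those of Y665F. The Y665F libraries were the highest, while the WT libraries stood far apart from each other, on 2 and 14 UMIs. The log2 fold change was 3.09 ± 0.51 (edgeR adjusted p = 0.00408). Its size rested on the WT libraries, at 2.06 without WT replicate 1 and 5.38 without WT replicate 2. The call was lost with DESeq2 (adjusted p = 0.207), with stricter gates (0.159) and with no filter on low counts (0.682).

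In granulocyte-monocyte progenitors Socs2 went from near 0 to a clear signal. It stood at 1.26 and 0.546 CPM in WT (1 UMI each), 0.704 and 0 CPM in the Y665H libraries, and 63.2 and 52.1 CPM in Y665F (382 and 231 UMIs). The fitted log2 fold change was 6.02 ± 0.53 (edgeR adjusted p = 2.63e-06), and the pooled ratio of 76.7 had a counting interval of 21.2 to 635. In erythroid progenitors Socs2 was at 1.28 and 0.494 CPM in the WT libraries, 0.506 and 0.478 CPM in those of Y665H, and 22.0 and 30.4 CPM in those of Y665F. Y665F did not overlap with WT or Y665H, which overlapped with each other. Socs2 gave a log2 fold change of 4.63 ± 0.39 (edgeR adjusted p = 9.46e-07), and the calls of both classes held in all 16 alternatives.

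The other 3 classes gave Socs2 calls that depended on single libraries. B lineage cells held Socs2 at 71.3 and 18.3 CPM in the WT libraries, 43.2 and 18.1 CPM in those of Y665H, and 214 and 126 CPM in those of Y665F. The Y665F libraries were the highest and WT and Y665H overlapped (log2 fold change 2.27 ± 0.49, edgeR adjusted p = 0.0352). Without WT replicate 2 the log2 fold change was 1.49 (adjusted p = 0.222), and without Y665F replicate 1 the adjusted p was 0.0772.

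Megakaryocyte lineage cells held Socs2 at 7.61 and 14.9 CPM in the WT libraries, 5.99 and 0 CPM in those of Y665H, and 55.5 and 64.1 CPM in those of Y665F (log2 fold change 2.38 ± 0.63, edgeR adjusted p = 0.0147). Monocyte lineage cells held it at 5.33 and 4.14 CPM in the WT libraries, 0 and 4.12 CPM in those of Y665H, and 63.0 and 42.3 CPM in those of Y665F (3.50 ± 0.97, edgeR adjusted p = 0.0474). In both classes Socs2 was the only member that passed the count filter, which it did through its Y665F libraries, and WT held 1 to 3 UMIs per library. Leaving out any 1 WT or Y665F library ended both calls, with adjusted p-values of 0.0538 to 0.271 in the megakaryocyte lineage and 0.0716 to 0.497 in the monocyte lineage. Basophil and mast cell progenitors, not tested, held no Socs2 UMI in WT or Y665H and 24 in each Y665F library, at least 4.5-fold above the floor, with an exact interval from 3.52. The Y665F to WT ratio over all BM barcodes was 20.7 (counting interval 18.0 to 23.9).

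Socs7 (ENSMUSG00000038485, GRCm38 chr11:97362551-97398542, plus strand), whose protein binds the adaptor NCK, was higher in erythroid progenitors of Y665F mice. It was at 4.47 and 3.46 CPM in the WT libraries, 4.05 and 5.97 CPM in those of Y665H, and 13.3 and 17.9 CPM in those of Y665F. Y665F did not overlap with the other groups (log2 fold change 1.74 ± 0.32, edgeR adjusted p = 0.000744), and the call held in all 16 alternatives. In granulocyte-monocyte progenitors Socs7 was at 8.83 and 4.37 CPM in WT and 10.3 and 15.6 CPM in Y665F (log2 fold change 0.97, edgeR adjusted p = 0.109). In B lineage cells it was at 0 and 5.22 CPM in WT and 14.2 and 19.98 CPM in Y665F (1.91 ± 0.71, edgeR adjusted p = 0.155). In each of these classes both Y665F libraries were above both WT libraries, without passing the test. In B lineage cells Socs7 met the count filter, at 12.3 CPM, only through Y665F. That order was thus fixed in advance there and adds no support. In stem and multipotent progenitors Socs7 was filtered out, with 2 UMIs in each WT library and 59 and 92 in Y665F (ratio 3.26, counting interval 1.25 to 12.1).

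Socs1 (ENSMUSG00000038037, GRCm38 chr16:10782240-10785536, minus strand), a direct inhibitor of JAKs, was called against WT in erythroid progenitors only. It was at 1.92 and 1.32 CPM in the WT libraries, 1.52 and 1.91 CPM in those of Y665H, and 6.16 and 2.98 CPM in those of Y665F. Y665F lay above WT and Y665H, which overlapped, but its libraries differed from each other by more than those of the other groups did. The log2 fold change was 1.5 ± 0.49 (edgeR adjusted p = 0.0251), and it was 0.56 (adjusted p = 0.648) without Y665F replicate 1. It also lost the call without WT replicate 1 (adjusted p = 0.071), without WT replicate 2 (0.153) and with DESeq2 (0.147). In B lineage cells the Socs1 log2 fold change was -0.16 (edgeR adjusted p = 0.901).

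Socs5 (ENSMUSG00000037104, GRCm38 chr17:87107679-87137839, plus strand) was likewise called against WT in erythroid progenitors only. It stood at 3.04 and 2.80 CPM in the WT libraries, 2.19 and 2.63 CPM in those of Y665H, and 8.36 and 6.56 CPM in those of Y665F, without overlap (log2 fold change 1.24 ± 0.38, edgeR adjusted p = 0.0178). That call was lost without either WT library (adjusted p = 0.0801 and 0.0908), without Y665F replicate 1 (0.84, adjusted p = 0.298) and with DESeq2 (1.22, adjusted p = 0.108).

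Socs3 (ENSMUSG00000053113, GRCm38 chr11:117966079-117970047, minus strand), the main brake on STAT3 signaling of the interleukin 6 receptor family, was sparse in marrow. In granulocyte-monocyte progenitors it was at 1.26 and 2.19 CPM in the WT libraries, 2.81 and 1.74 CPM in those of Y665H, and 10.3 and 4.73 CPM in those of Y665F. Socs3 met the count filter, at 4.28 CPM in this class, only through Y665F, so that Y665F lay above the other groups is a description. The log2 fold change of 1.86 ± 0.68 did not pass the test (edgeR adjusted p = 0.0584). In erythroid progenitors, where Socs3 was filtered out, WT held 1 and 2 UMIs and Y665F 11 and 4 (ratio 7.26, counting interval 2.05 to 39.1). B lineage cells of WT held no Socs3 UMI, against 11 and 4 in Y665F (at least 2.74-fold above the floor, with an exact interval from 1.97). Y665H was at 1.39 to 8.22 CPM there and Y665F at 4.44 to 6.53 CPM, so these groups overlapped.

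Socs4 (ENSMUSG00000048379, GRCm38 chr14:47276931-47296102, plus strand) and Socs6 (ENSMUSG00000056153) passed the count filter in 4 marrow classes and were called in none against WT. Socs4 was at 20.2 and 16.4 CPM in WT and 29.8 and 34.0 CPM in Y665F granulocyte-monocyte progenitors (log2 fold change 0.70, edgeR adjusted p = 0.0752). In erythroid progenitors it was at 19.0 and 16.9 CPM in WT and 30.1 and 27.4 CPM in Y665F (0.52, edgeR adjusted p = 0.074). Its Y665F libraries were higher than both WT libraries in each of these classes. In stem progenitors its log2 fold change was -0.03 (edgeR adjusted p = 0.979) and in B lineage cells 0.35 (adjusted p = 0.676). Socs6 was at 28.9 to 35.9 CPM in WT and 24.4 to 29.98 CPM in Y665F stem progenitors, 15.8 to 20.2 and 15.6 to 20.7 CPM in granulocyte-monocyte progenitors, 10.4 to 10.5 and 11.4 to 19.1 CPM in erythroid progenitors, and 17.4 to 22.5 and 17.8 to 33.3 CPM in B lineage cells. Its log2 fold changes lay near 0, between -0.13 in stem and 0.33 in B lineage cells.

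**Figure D2:**
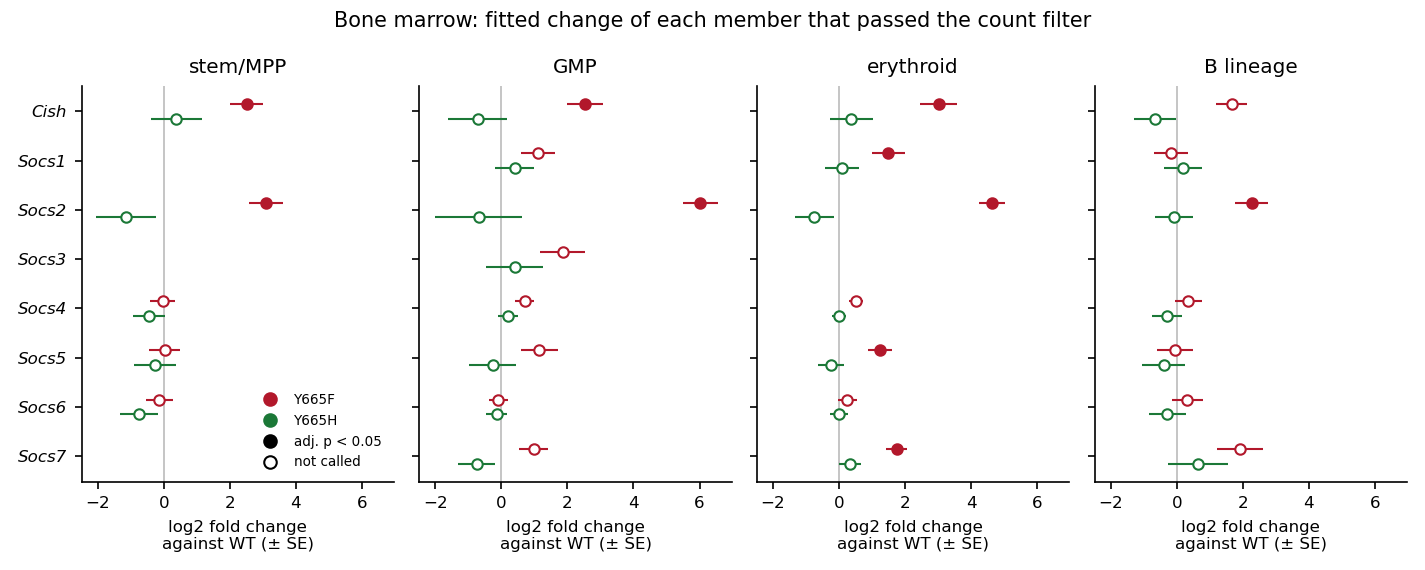
Fitted log2 fold change against WT, with its standard error, of each member that passed the count filter in 4 classes of BM cells. Red points are Y665F and green points Y665H, and filled points passed an edgeR adjusted p under 0.05. Filled points are all Y665F, all above 0, with Cish filled in the first 3 classes and Socs2 in all 4.

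Counted over members, edgeR called 12 of 29 member tests in BM higher in Y665F than in WT and 0 lower. An unadjusted p under 0.05 was reached in 19, and by 696 to 4376 of all genes per class. DESeq2 called 5 of the 14 member tests to which it gave an adjusted p, and 28 to 2224 of all genes per class. Called higher were 2 of 5 members in stem and multipotent progenitors (0.202% of all genes tested there were called higher), and 2 of 8 in granulocyte-monocyte progenitors (8.58% of all genes). In erythroid progenitors 5 of 7 were called higher (13.5% of all genes), and in B lineage cells 1 of 7 (0.604%). The only tested member was called in the megakaryocyte lineage (2.6% of all genes) and in the monocyte lineage (1.1%). Of the 12 calls, 8 were of members that met the count filter only through their Y665F libraries: Cish in all 3 classes where it was called, and Socs2 in all but the B lineage cells. A member that entered in this way had to differ, so the counts are a description and are not read against the background. The other 4 calls were Socs1, Socs5 and Socs7 in erythroid progenitors and Socs2 in B lineage cells, of which the erythroid 3 stand beside many called genes of all kinds.

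Y665F was also set against Y665H, a comparison that shares its Y665F libraries with the one against WT. Cish was higher in Y665F in stem (log2 difference 2.14 ± 0.53, edgeR adjusted p = 0.0295), granulocyte-monocyte (3.26 ± 0.53, adjusted p = 0.000448), erythroid (2.65 ± 0.52, adjusted p = 0.000876) and B lineage cells (2.33 ± 0.52, adjusted p = 0.027). Socs2 was higher in all 6 classes, by 2.34 ± 0.49 in B lineage cells (edgeR adjusted p = 0.0216) up to 6.71 ± 0.50 in granulocyte-monocyte progenitors (2.97e-07). In granulocyte-monocyte progenitors Socs7 (1.72 ± 0.41, edgeR adjusted p = 0.00499), Socs5 (1.40 ± 0.50, 0.0393) and Socs3 (1.46 ± 0.54, 0.0464) were called as well. Socs7, Socs5 and Socs1 were called in erythroid progenitors (1.41 ± 0.31, 1.49 ± 0.38 and 1.41 ± 0.47, edgeR adjusted p at most 0.0245). The calls of Cish and Socs2 in granulocyte-monocyte progenitors and of Socs2 in erythroid progenitors held in all 16 alternatives. The others lost the call without at least 1 library or under another setting. For Cish, leaving out Y665H replicate 1 gave 1.72 (adjusted p = 0.0859) in erythroid progenitors, and leaving out any 1 Y665H or Y665F library gave 1.87 to 2.41 (0.0633 to 0.246) in stem and 2.13 to 2.42 (0.104 to 0.128) in B lineage cells. Socs2 in B lineage cells lost it without Y665H replicate 2 (1.80, 0.123) or Y665F replicate 1 (1.85, 0.0592), and Socs2 in stem progenitors lost it only with no filter on low counts (4.26, 0.421), a setting that also ended the stem call of Cish (2.16, 0.421). Without Y665H replicate 1 the granulocyte-monocyte calls of Socs7 (1.82, 0.0587), Socs5 (0.77, 0.435) and Socs3 (1.82, 0.176) and the erythroid calls of Socs7 (1.03, 0.0923), Socs5 (1.27, 0.126) and Socs1 (1.14, 0.277) were lost. In granulocyte-monocyte progenitors Y665H replicate 2 also ended the call of Socs3 (1.22, 0.174), Y665F replicate 2 that of Socs7 (1.46, 0.057), and either Y665F library that of Socs5 (0.051 and 0.169). In erythroid progenitors Y665F replicate 1 ended those of Socs1 (0.47, 0.691) and Socs5 (1.09, 0.161).

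Of the 29 member tests, 16 were called higher in Y665F than in Y665H, 10 of them for members that met the filter only through Y665F. Those 10 were Cish in each class where it was called, Socs2 outside the B lineage cells, and Socs3 in granulocyte-monocyte progenitors. Their calls are a description. By class, the members called were 2 of 5 in stem (1.67% of all genes), 5 of 8 in granulocyte-monocyte (15.8%), 5 of 7 in erythroid (17.0%) and 2 of 7 in B lineage cells (1.35%). Socs2 was the 1 tested member in megakaryocyte (5.88% of all genes) and monocyte lineage cells (4.42%). In these 2 lineages its log2 differences were 3.78 ± 0.72 (edgeR adjusted p = 0.000328) and 4.51 ± 1.08 (0.0143). The first lost its call without Y665H replicate 1 (8.56, adjusted p = 0.0602), and the second without any 1 Y665H or Y665F library (3.51 to 6.90, adjusted p 0.0626 to 0.238).

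No member passed the test between Y665H and WT. EdgeR called 0 of 29 member tests, 0 had an unadjusted p under 0.05, and DESeq2 called 0 of 29. The background was the same, with 0.0% of all genes called in each of the 6 classes, while 116 to 348 genes per class had an unadjusted p under 0.05 and DESeq2 called 0 or 1. For Cish the log2 difference between Y665H and WT was 0.38 ± 0.77 in stem (edgeR adjusted p = 0.935) and -0.72 ± 0.89 in granulocyte-monocyte progenitors (adjusted p = 1). It was 0.38 ± 0.66 in erythroid progenitors (adjusted p = 1) and -0.66 ± 0.64 in B lineage cells (adjusted p = 0.977). With so few UMIs in both groups these errors leave room for differences of more than 2-fold.

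Whether the size of the Y665F change differed between marrow classes was tested as an interaction over the same libraries. The Cish change did not differ detectably between any pair of the 4 best filled classes. Its differences ranged from -1.51 ± 0.78 between B lineage cells and erythroid progenitors (edgeR adjusted p = 0.74; 0.0595% of all genes called) to 0.69 ± 0.90 between erythroid and granulocyte-monocyte progenitors (0.971% called). Cish gave 0.02 ± 0.46 between granulocyte-monocyte and stem progenitors (1.08% called), 0.52 ± 0.76 between erythroid and stem progenitors (1.09%), and -0.91 ± 0.66 between B lineage and stem progenitors (0.172%).

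The Socs2 change was larger in granulocyte-monocyte than in stem progenitors, by 3.47 ± 0.87 on the log2 scale (edgeR adjusted p = 0.011). This rested on WT replicate 2, whose stem gate held 14 Socs2 UMIs, and without it the difference was 0.15 (adjusted p = 0.994). The call was also lost without Y665H replicate 1 (3.46, adjusted p = 0.062) and without Y665F replicate 2 (3.29, adjusted p = 0.0909). The Socs2 change was smaller in B lineage cells than in erythroid progenitors by 2.68 ± 0.55 (-2.68, adjusted p = 0.0492), a call lost in 7 of 12 alternatives. Between B lineage cells and granulocyte-monocyte progenitors the Socs2 difference was -3.78 ± 0.68 (adjusted p = 0.0686, where 0.0% of all genes were called, 0 by edgeR).

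Within Y665F libraries, the number of Socs2 UMIs per Cish UMI gave a ratio that does not depend on depth. In Y665F replicate 1 this ratio was 3.27 (95% counting interval 2.86 to 3.75) in stem, 6.26 (4.77 to 8.35) in granulocyte-monocyte, 3.66 (2.58 to 5.30) in erythroid, 2.12 (1.54 to 2.94) in megakaryocyte and 5.73 (4.38 to 7.61) in B lineage cells. In Y665F replicate 2 it was 2.89 (2.46 to 3.41), 3.40 (2.58 to 4.52), 3.64 (1.99 to 7.13), 2.89 (1.84 to 4.66) and 4.04 (2.65 to 6.34) in the same order. The ratio of the megakaryocyte lineage was the lowest in replicate 1 and close to that of stem progenitors in replicate 2. The granulocyte-monocyte ratio of each library lay outside the interval of the other, and the B lineage ratio of replicate 2 lay below the interval of replicate 1.

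The gated classes were not the same mixture in each genotype. Stem gates held 166 and 187 barcodes in WT, 137 and 104 in Y665H, and 1556 and 1803 in Y665F. The genes that set this gate were detected in each library, as the gate itself brings about, with Hlf at 430 to 674 CPM and Procr at 16.5 to 104 CPM. The 10 erythroid markers summed there to 994 to 1779 CPM in WT, 1912 to 2708 CPM in Y665H and 614 to 889 CPM in Y665F, of which Car1 gave 273 and 839, 1038 and 1768, and 119 and 284 CPM. In the erythroid gate all 10 erythroid markers were detected in every library, but their sum was 10450 to 13380 CPM in WT, 10810 to 12490 CPM in Y665H and 3329 to 4782 CPM in Y665F. The 10 neutrophil markers summed there to 5.10 to 6.87 CPM in WT, 13.3 to 116 CPM in Y665H and 354.5 to 631 CPM in Y665F, and the 5 granulocyte-monocyte markers to 169 to 179, 196 to 251 and 300 to 556 CPM. Neutrophil markers were also higher in the Y665F stem gate (286.5 to 765 CPM, against 49.2 to 74.2 CPM in the other 4 libraries) and in the Y665F B lineage gate (1717 to 2399 CPM, against 16.7 to 418 CPM). Transcripts of one class also reached the gates of others. Car1 was at 207 to 1462 CPM in the B lineage gates, against 1115 to 9645 CPM in the erythroid gates. Prtn3, a granule enzyme gene, was at 82.1 to 132 CPM in the erythroid gates of WT and Y665H and at 146 and 227 CPM in those of Y665F, against 2433 to 6133 CPM in the granulocyte-monocyte gates. The part of these shifts and of such transcripts in the member changes was not tested. Stat5b itself was higher in Y665F than in WT in erythroid (log2 fold change 1.10 ± 0.25, edgeR adjusted p = 0.00263) and granulocyte-monocyte progenitors (0.86 ± 0.27, adjusted p = 0.0334, lost without either WT library at 0.0589 and 0.248, without Y665F replicate 2 at 0.172, or with DESeq2 at 0.144), and did not pass in stem progenitors (0.62, adjusted p = 0.453).

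Other genes of the pathway were counted in erythroid progenitors, the class with the largest Cish change. Among the other STAT5 target genes, 5 of 9 tested were higher and 1 lower in Y665F than in WT, with a median log2 fold change of 1.19 against 0.01 for all genes. Of all genes tested in this class 13.5% were called higher and 17.3% lower, so counts of 2 or 3 in a list of about 11 are near the background. The JAKs and STATs gave 3 higher and 1 lower of 11 (median 0.61), and other inhibitors of cytokine signaling 4 higher and 1 lower of 12 (median 0.31). Cytokine receptors that use STAT5 gave 2 higher and 2 lower of 11 (0.18), interferon-induced genes 4 higher and 1 lower of 10 (0.85), and immediate early and stress genes 4 higher and 1 lower of 12 (1.34). The SOCS box partners, the elongins, cullin and ring proteins through which the members act, gave 0 calls of 5 with edgeR (median -0.30), 2 with an unadjusted p under 0.05 and 1 by DESeq2. Between Y665H and WT, edgeR and DESeq2 called no gene of these 7 lists, and between 0 and 3 per list had an unadjusted p under 0.05.

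The pathway genes with the smallest adjusted p there were Pim1, Egr1, Ccnd3, Ccnd2, Csf2rb and Jun. The survival kinase gene Pim1, a STAT5 target, was at 13.6 and 14.3 CPM in the WT libraries, 12.1 and 10.3 CPM in those of Y665H, and 35.8 and 65.6 CPM in those of Y665F (log2 fold change 1.59 ± 0.25, edgeR adjusted p = 0.000194). The cyclin gene Ccnd2 was at 61.8 and 44.8 CPM in the WT libraries, 39.1 and 49.5 CPM in those of Y665H, and 117 and 145 CPM in those of Y665F (1.10 ± 0.21, adjusted p = 0.00103). Its relative Ccnd3 fell, from 112 and 94.8 CPM in WT and 98.8 and 62.6 CPM in Y665H to 48.8 and 56.6 CPM in Y665F (-1.17 ± 0.23, adjusted p = 0.000973). Csf2rb, the shared receptor chain for interleukin 3 and GM-CSF, was at 0.639 and 0.494 CPM in the WT libraries, 0.506 and 1.2 CPM in those of Y665H, and 3.67 and 10.7 CPM in those of Y665F (3.20 ± 0.65, adjusted p = 0.00139). It met the count filter, at 1.62 CPM in this class, only through Y665F. The immediate early genes Egr1 and Jun rose by 2.32 ± 0.40 and 1.74 ± 0.36 (adjusted p = 0.000473 and 0.00162). The 6 genes were picked by their adjusted p in this same comparison. That both Y665F libraries lay outside the WT range for each follows from the choice and adds no support. Their calls held in all edgeR alternatives, while DESeq2 did not call Jun (adjusted p = 0.0588).

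In the LN, no difference of Cish between genotypes passed the test in any class, and its level varied widely between classes. In CD8 T cells Cish was at 6.77 and 11.1 CPM in WT, 12.4, 7.86 and 7.25 CPM in Y665F het, and 12.9 and 7.34 CPM in Y665F homo. The 3 groups overlapped throughout. The log2 fold change was -0.09 ± 0.39 for homo (edgeR adjusted p = 0.948) and 0.18 ± 0.29 for het (adjusted p = 0.917), and homo against het gave -0.27 ± 0.35 (adjusted p = 0.928). Ccl5, a chemokine of effector and memory cells, was at 265 and 209 CPM in the WT gate and between 974 and 2848 CPM in the Y665F gates. Among CD8 T cells without a Ccl5 UMI, Cish was at 4.53 and 10.9 CPM in WT, 10.9, 7.90 and 11.1 CPM in het, and 12.7 and 8.42 CPM in homo, which also overlapped. Among those with a Ccl5 UMI it was at 12.7 to 26.2 CPM in WT, 0 to 14.5 CPM in het and 6.41 to 13.2 CPM in homo. These groups overlapped too, and Cish did not pass the count filter there.

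In CD4 T cells, Foxp3-positive cells excluded, Cish was at 14.0 and 27.6 CPM in WT, 32.6, 42.6 and 66.2 CPM in het, and 52.8 and 41.7 CPM in homo. Every Y665F library exceeded both WT libraries, 2 of them on 3 or 4 Cish UMIs. The difference did not pass the test (log2 fold change 0.92 ± 0.43 for homo, edgeR adjusted p = 0.567, and 0.69 ± 0.28 for het, adjusted p = 0.621). The Cish change of homo against WT was not shown to differ between CD8 and CD4 T cells (1.08 ± 0.57 larger in CD4, edgeR adjusted p = 0.853; 0.315% of all genes called).

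Regulatory T (Treg) cells, which depend on interleukin 2, held the most Cish of the LN classes in every library. It was at 152 and 224 CPM in WT, 210, 212 and 187 CPM in het, and 190 and 236 CPM in homo. The groups overlapped, with a log2 fold change of 0.24 ± 0.30 for homo (edgeR adjusted p = 0.919) and 0.11 ± 0.22 for het (adjusted p = 0.995). B cells held 0 to 3 Cish UMIs per library. The order of Cish levels was Treg above CD4 T in every library, CD4 T above CD8 T in every library, and B cells lowest.

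**Figure D3:**
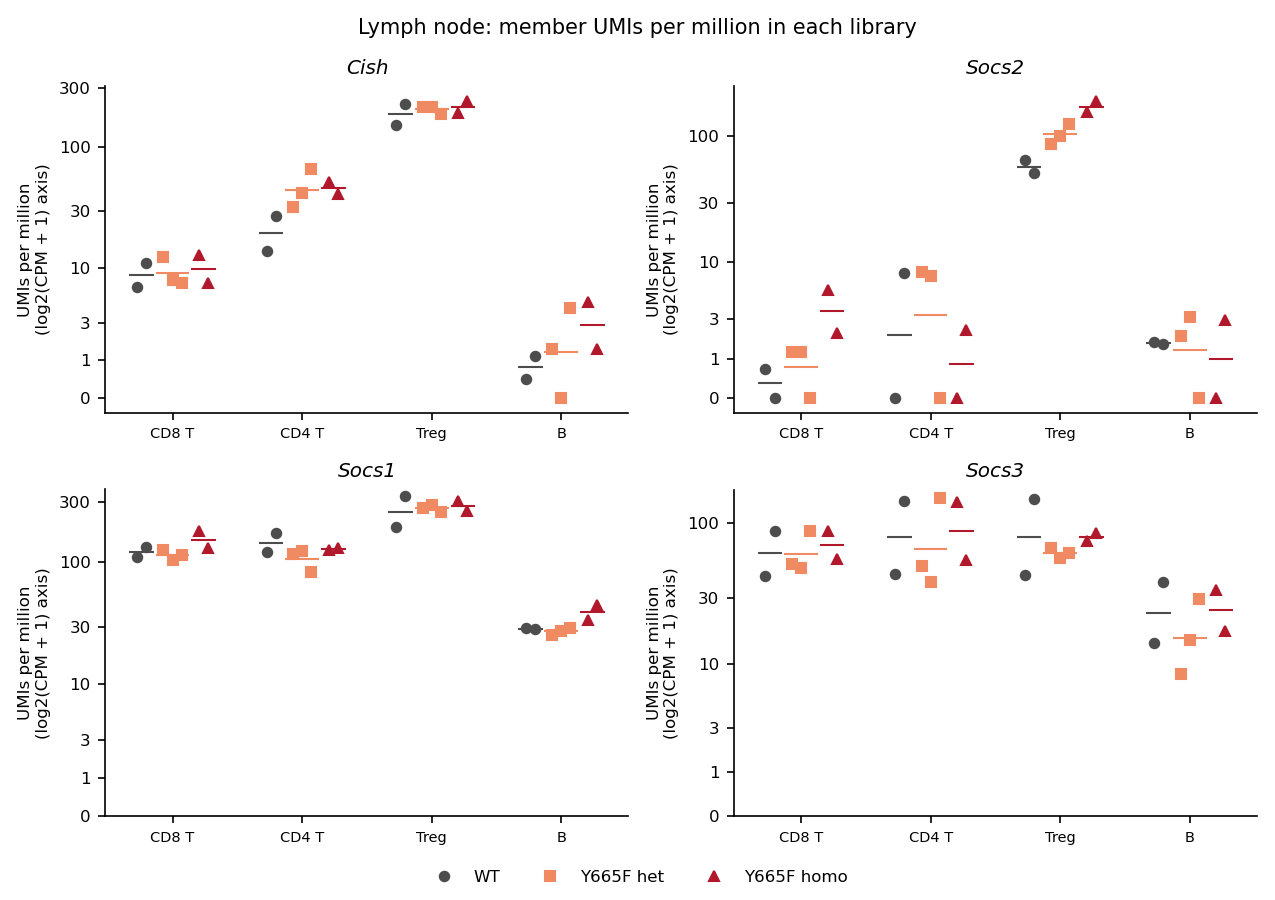
Levels of Cish, Socs2, Socs1 and Socs3 in 4 gated classes of LN cells. The y axis gives CPM on a log2(CPM + 1) scale, each point is 1 library (WT 2, Y665F het 3, Y665F homo 2) and short lines are means on that scale. Genotypes overlap for Cish in CD8 T and Treg cells, while Socs2 in Treg cells is lowest in WT and highest in Y665F homo.

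Socs2 in Treg cells had LN levels that followed the number of Y665F alleles, without passing the test. Socs2 was picked out here after the levels of all members in the LN classes were seen. It was at 65.3 and 51.2 CPM in WT, 87.3, 100 and 125 CPM in het, and 152 and 186 CPM in homo. No group overlapped with another, and the share of all genes with such an order was not counted. The log2 fold change was 1.73 ± 0.40 for homo against WT (edgeR adjusted p = 0.162), 0.76 ± 0.33 for het against WT (adjusted p = 0.995) and 0.97 ± 0.34 for homo against het (adjusted p = 0.854). In this gate 0.0659% of all genes were called for homo and 0.0659% for het against WT, and 0.0% for homo against het. With 1 library left out, homo against WT ranged from 1.14 to 1.82 and was called in 0 of 7 fits with edgeR (adjusted p 0.0613 to 0.943), and DESeq2 did not call it (adjusted p = 1). Without the shallow libraries, het replicate 3 and homo replicate 1, which held 2 and 4 Socs2 UMIs, homo against WT gave 1.84 (adjusted p = 0.00974), an alternative chosen after the data were seen. In CD8 T cells Socs2 was rare, with 1 and 0 UMIs in the WT libraries, 9, 4 and 0 UMIs in those of het, and 4 and 5 UMIs in those of homo. The pooled homo to WT ratio of 15.2 rested on 9 against 1 UMIs (counting interval 2.10 to 665.2).

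Socs3 in CD4 T cells gave the only LN call among members, lower in het than in WT by a log2 fold change of -1.09 ± 0.25 (edgeR adjusted p = 0.0276). It was at 44.3 and 144 CPM in WT, 50.4, 38.9 and 149 CPM in het, and 141 and 55.5 CPM in homo. All groups overlapped, and each had a low and a high library. Without WT replicate 2 the change was 0.19 (adjusted p = 0.997), without het replicate 1 it was -1.11 (adjusted p = 0.857), and without het replicate 2 it was -0.93 (adjusted p = 0.254). DESeq2 did not call it either (-0.38, adjusted p = 1). The same spread was seen in other classes, with Socs3 at 43.6 and 147 CPM in the WT Treg cells and 14.2 and 38.8 CPM in the WT B cells. Socs1 was at 104 to 176 CPM in CD8 T cells, 82.7 to 169 CPM in CD4 T cells, 189 to 330 CPM in Treg cells and 25.6 to 45.5 CPM in B cells. Its log2 fold changes of homo against WT were 0.31, -0.18, -0.05 and 0.58 in that order (edgeR adjusted p at least 0.367). Socs4 was at 16.3 to 31.8 CPM in CD8 T, 16.3 to 40.5 CPM in CD4 T, 21.8 to 125 CPM in Treg and 25.4 to 73.5 CPM in B cells. The same ranges were 6.77 to 12.9, 0 to 16.5, 0 to 21.5 and 12.7 to 23.8 CPM for Socs5, and 7.17 to 13.04, 0 to 35.2, 0 to 21.5 and 4.90 to 15.5 CPM for Socs6. For Socs7 they were 9.07 to 14.2, 0 to 17.6, 0 to 30.8 and 8.48 to 19.6 CPM. Neither Socs1 nor any of Socs4 to Socs7 was called in an LN class. Stat5b itself did not pass the test in any LN class, with a log2 fold change of homo against WT between -1.21 in Treg cells and 0.36 in B cells.

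Over the LN classes, homo against WT called 0 of 22 member tests with edgeR and 0 with DESeq2. An unadjusted p under 0.05 was reached in 3, and by 211 to 1366 of all genes per class. All genes called were 1.84% in CD8 T, 0.563% in CD4 T and 0.011% in B cells. Het against WT called Socs3 alone of 22 with edgeR and 0 with DESeq2. An unadjusted p under 0.05 was reached in 5, and by 114 to 860 of all genes per class. EdgeR called 0.951% of all genes in CD8 T, 0.344% in CD4 T and 0.0882% in B cells. Homo against het called 0 of 22 with edgeR, and 3 had an unadjusted p under 0.05 (148 to 573 of all genes per class). There 0.0106%, 0.0469% and 0.0882% of all genes were called in CD8 T, CD4 T and B cells. Other STAT5 target genes did move in CD8 T cells: 3 of 11 tested were higher in homo than in WT, with 0 lower. These, named after their values were seen, were Pim1 (log2 fold change 1.12 ± 0.17, edgeR adjusted p = 0.00045), the survival gene Bcl2 (0.95 ± 0.15, 0.000671) and Myc (0.59 ± 0.14, 0.0301). The Myc call was lost without either WT library (log2 fold change 0.48 and 0.75), either homo library (0.56 and 0.62) or het replicate 2 (edgeR adjusted p = 0.051). It was also lost with DESeq2 (adjusted p = 0.126), and in edgeR with barcodes of at least 500 genes (0.0585) and with stricter gates (0.105). The calls of Pim1 and Bcl2 held in 17 of 18 alternatives. The exception, chosen after the data were seen, was CD8 T cells without a Ccl5 UMI, where edgeR and DESeq2 called 0 of 10 target genes and 4 had an unadjusted p under 0.05. There Pim1 was at 0.89 (adjusted p = 0.0643), Bcl2 at 0.77 (0.0604) and Myc at 0.48 (0.27). In CD4 T cells Pim1 alone of 8 was higher (1.35 ± 0.21, adjusted p = 0.000204), and without homo replicate 2 it was at 0.76 (adjusted p = 0.795). DESeq2 did not call it (1.33, adjusted p = 0.498).

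The spleen had 1 library per genotype, so the values have no replicate check and no test, and intervals cover counting error only. In T cells and natural killer (NK) cells of the Y665F spleen, Cish and Socs2 stood above WT. In CD8 T cells Cish was at 6.77 CPM for WT, 9.0 CPM for Y665H and 28.3 CPM for Y665F, a Y665F to WT ratio of 4.18 (95% interval 3.19 to 5.56). In CD4 T cells it was at 17.4, 14.1 and 99.5 CPM in the same order (ratio 5.73, 4.62 to 7.15), and in Treg cells at 145, 101 and 285 CPM (ratio 1.97, 1.62 to 2.40). The Y665F library was the highest in each class, and Treg cells again held the most Cish.

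NK cells of the spleen held Cish at 13.8 CPM for WT, 4.51 CPM for Y665H and 42.4 CPM for Y665F (Y665F to WT ratio 3.08, 1.54 to 6.40), on 14, 4 and 25 UMIs. B cells held 3, 5 and 4 Cish UMIs. Splitting the CD8 T cells by Ccl5 put the Cish ratio at 3.28 (2.06 to 5.30) without and 3.78 (2.61 to 5.66) with a Ccl5 UMI. Of the CD8 barcodes, 1249 of 1607 had a Ccl5 UMI in Y665F and 507 of 1321 in WT. The Y665H to WT ratio of Cish was 1.33 (0.919 to 1.93) in CD8 T cells, 0.814 (0.61 to 1.08) in CD4 T cells, 0.698 (0.514 to 0.94) in Treg cells and 0.327 (0.0785 to 1.04) in NK cells. Among these 4 intervals, that of Treg cells lay below 1 and the others included 1.

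Socs2 was likewise highest in Y665F in the T and NK cells of the spleen. In B cells it was highest in Y665H, at 1.3, 3.05 and 2.37 CPM in WT, Y665H and Y665F, on 6, 18 and 6 UMIs. In CD8 T cells it was at 0.982, 1.03 and 6.95 CPM in WT, Y665H and Y665F (Y665F to WT ratio 7.07, 3.57 to 16.0), and in CD4 T cells at 4.26, 2.08 and 31.2 CPM (7.32, 4.79 to 11.6). The CD8 ratio was 4.99 (0.816 to 52.4) without and 4.49 (2.09 to 11.5) with a Ccl5 UMI, the first on 5 against 2 UMIs. In Treg cells it was at 55.2, 27.4 and 127 CPM (2.30, 1.69 to 3.19), and in NK cells at 11.8, 1.13 and 93.2 CPM (7.90, 4.18 to 16.2). Y665H was below WT in CD4 T, Treg and NK cells, with ratios of 0.489 (0.236 to 0.971), 0.496 (0.276 to 0.857) and 0.0955 (0.00223 to 0.645), the last on 1 UMI against 12.

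Socs1 was higher in Y665F by a smaller ratio, at 40.1, 43.1 and 73.6 CPM in CD8 T cells of WT, Y665H and Y665F (Y665F to WT 1.84, 1.63 to 2.08). In CD4 T cells Socs1 was at 41.0, 43.0 and 102 CPM (2.49, 2.13 to 2.92) and in Treg cells at 123, 95.2 and 180 CPM (1.47, 1.18 to 1.84). Socs3 took another order, with Y665H above WT in CD8 T cells (30.1 CPM for WT, 44.0 CPM for Y665H and 32.4 CPM for Y665F) and both mutants above WT in CD4 T cells (31.8, 56.4 and 52.5 CPM) and in Treg cells (30.9, 77.9 and 72.7 CPM). Among CD8 T cells without a Ccl5 UMI, however, Socs3 was above WT in both mutants, with ratios of 1.55 (1.23 to 1.95) for Y665F and 1.53 (1.24 to 1.88) for Y665H, and with a Ccl5 UMI it was at 1.06 (0.845 to 1.35) and 1.29 (0.957 to 1.74). Socs4 was lower in Y665F CD8 T cells, at 28.8 CPM against 37.7 CPM in WT (ratio 0.766, 0.661 to 0.888). The other Y665F to WT intervals of Socs4 to Socs7 in T, NK and B cells included 1.

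**Figure D4:**
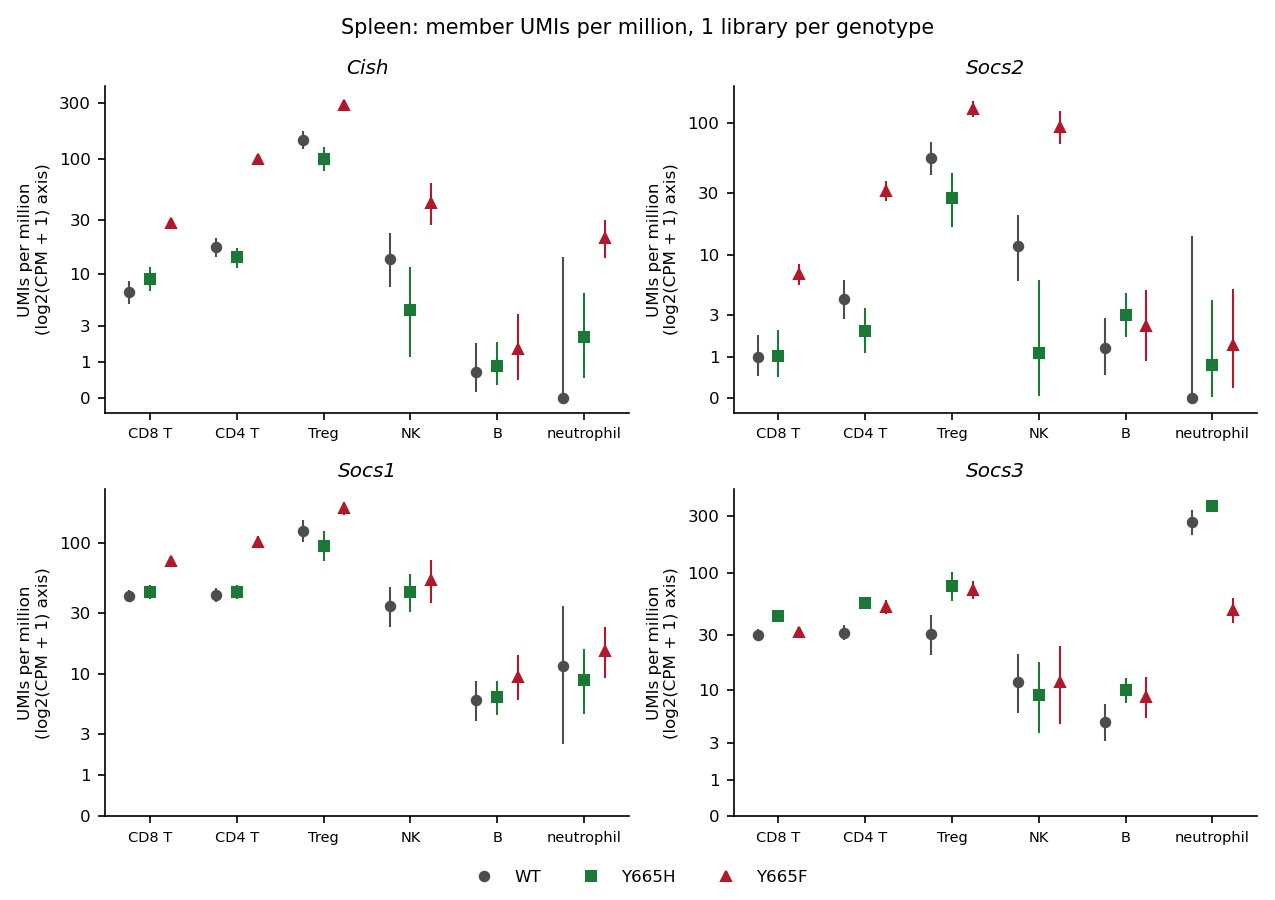
Levels of Cish, Socs2, Socs1 and Socs3 in 6 gated classes of spleen cells, 1 library per genotype. The y axis gives CPM on a log2(CPM + 1) scale, and bars are exact Poisson 95% intervals, which cover counting error only. In CD8 T, CD4 T, Treg and NK cells the Y665F point is the highest for Cish and Socs2, and in neutrophils it is the lowest for Socs3.

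Among members with at least 10 UMIs over both libraries, those at least 2-fold higher in Y665F than in WT were Cish and Socs2 in CD8 T cells (2 of 8; 3.94% of all genes), Cish, Socs2 and Socs1 in CD4 T cells (3 of 8; 3.16%) and Socs2 and Socs3 in Treg cells (2 of 8; 5.36%). Cish and Socs2 were so in NK cells (2 of 8; 3.48%), and none of 7 members was in B cells (2.35%). At least 2-fold lower was Socs6 in NK cells (1 of 8; 7.89% of all genes), at a ratio of 0.453 (0.132 to 1.25), and no member in CD8 T, CD4 T, Treg or B cells. The median log2 ratio of all genes was -0.147 in CD8 T, -0.149 in CD4 T and -0.108 in NK cells, so raised members stand slightly further from the bulk of genes than from 1, and lowered ones slightly nearer. Neutrophil transcripts in the T cell gates differed between the spleen libraries. S100a8 was at 7.38 CPM in WT CD4 T cells, 504 CPM in Y665H and 763 CPM in Y665F, from free RNA or from doublets, which were not told apart. Its part in these values was not tested.

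Spleen neutrophils went the other way for Socs3, at 267 CPM for WT, 360 CPM for Y665H and 49.1 CPM for Y665F (Y665F to WT ratio 0.184, 0.13 to 0.261). Cish had no UMI there in WT, 3 in Y665H and 29 in Y665F (20.9 CPM), at least 1.81-fold above a floor of 3 counts, while the exact interval of the ratio begins at 1.38. Of the 5 members with at least 10 UMIs, 2 were at least 2-fold lower, Socs3 and Socs6 (23.6% of all genes). By the same rule 1 of 5 was at least 2-fold higher (14.1% of all genes, genes at 0 in WT included). This was Cish, through having no UMI in WT, although its bound against the floor was 1.81-fold. This was a class where the median of all genes was -0.42. The neutrophils of the libraries differed in more than these genes. The gate held 73, 378 and 173 barcodes in WT, Y665H and Y665F, with medians of 2973, 3003 and 7353 UMIs. The granulocyte-monocyte markers summed to 11.6, 9.77 and 1538 CPM, the immediate early and stress genes to 11020, 11880 and 2952 CPM, and Csf3r, a marker of mature neutrophils, stood at 2056, 2185 and 527 CPM. Their part in the Socs3 difference was not tested.

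The genes whose levels ran most like those of Cish were ranked by Pearson's r of log2(CPM + 1) over library-by-class sums, as a description with no test. Over 28 LN sums of 4 classes and 8179 genes, they were Tnfrsf18 (r = 0.968), Ctla4 (0.947), Izumo1r (0.945), Ikzf2 (0.945) and Neb (0.937). The first 4 are genes known from Treg cells, the class with the most Cish. Over 36 BM sums of 6 classes and 7576 genes, they were Ythdc1 (r = 0.931), Hipk1 (0.911), Krit1 (0.888), Kmt2a (0.887) and Txnip (0.884). Among the members, Socs1 came closest in LN (r = 0.884, rank 34) and Socs2 in BM (r = 0.864, rank 10). Sums of 1 library share its depth and those of 1 class its cell type, so these points are not independent.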

How the data were processed

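The authors made the expression files with Cell Ranger (for LN 5.0.0, for the other tissues 6.0.0, per the file headers, against the mouse GRCm38 genome) and deposited raw UMI counts per gene and barcode. Labels name a 3′ kit and the methods of the study a 5′ kit, so levels were compared only within a tissue. T-cell receptor libraries were not used.

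A barcode was kept when it held 200 genes or more and no more than 10% of its UMIs were mitochondrial. Gates required 1 to 6 UMIs of the markers of a class and allowed 0 to 3 of other lineages; the members were not used in them. No doublet caller was run, and an alternative removed the barcodes with the most UMIs. Counts summed per library and class were tested with edgeR 4.0.16 (quasi-likelihood, TMM, filterByExpr, 1 model per class with all genotypes; R 4.3.3, limma 3.58.1), with DESeq2 1.42.0 as an alternative, in classes with at least 20 barcodes in every library. The edgeR fit was tested on counts simulated for LN CD8 T cells and BM erythroid progenitors, with changes set in genes well counted in every library. The DESeq2 and interaction fits were not tested in this way. The SE of a log2 fold change was its size over the square root of F. Differences between classes were fitted as an interaction over the summed counts of 2 classes. Spleen values carry exact Poisson intervals and ratios exact conditional intervals, at 95%, for counting error only, as do all ratios of pooled UMIs.

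The text gives all 8 members by level in BM and LN, fold changes for Cish in every class tested and for members that passed, the 5 genes most like Cish per tissue (mean of at least 10 CPM, pseudocount 1) and up to 6 pathway genes by adjusted p where Cish changed most. The members and gene lists were chosen with earlier results of these data known. Gm17041, antisense to Cish, held 0 or 1 UMI per library in LN and BM, and 12, 4 and 22 in the WT, Y665H and Y665F spleen. Python 3.11.15, pandas 2.3.3 and scipy 1.17.1 were used.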

Additional observations from a re-analysis of the deposited data

Results flagged for a closer look

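The Y665F to WT change of Socs2 differed between marrow classes by the interaction test. It was larger in granulocyte-monocyte than in stem and multipotent progenitors by 3.47 on the log2 scale (edgeR adjusted p = 0.011), and without WT replicate 2 the difference was 0.15. That call was lost without any 1 of WT replicate 2, Y665H replicate 1 and Y665F replicate 2. B lineage cells minus erythroid progenitors gave -2.68 (edgeR adjusted p = 0.0492), a call lost in 7 of 12 alternatives.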

How the results depend on the processing

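Cish in erythroid progenitors, Y665F against WT, passed the test in all 16 alternatives, with a log2 fold change of 2.92 to 3.16 when 1 library was left out. In stem and multipotent progenitors Cish kept its direction (2.27 to 2.74 with 1 library left out). It lost the call without WT replicate 2 (2.44), without Y665F replicate 1 (2.27) and with no filter on low counts (2.59, edgeR adjusted p = 0.682). DESeq2 and stricter gates gave Cish no value there. The other BM and LN member calls against WT numbered 11, against 4 with DESeq2 and 5 to 12 with 1 library left out. The spleen ratios moved within counting error in 3 alternatives each.

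LN CD8 T cells gave Cish no stable direction in homo against WT: 0.064 with DESeq2, 0.069 with stricter gates, 0.14 without Ccl5-positive cells, and -0.32 to 0.40 with 1 library left out. In CD4 T cells that range was 0.70 to 1.63. With 1 library left out, signs also turned for Cish in het against WT (-0.25 to 0.66) and homo against het (-0.50 to 0.23, with 0.18 without het replicate 1) in CD8 T cells, in homo against het in CD4 T cells (-0.073 to 0.32), in Treg cells for homo against WT (-0.36 to 0.56), het against WT (-0.068 to 0.46) and homo against het (-0.44 to 0.22), in BM erythroid progenitors for Y665H against WT (-0.18 to 1.29), and for Socs3 in CD4 T cells (-1.43 to 0.19).

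Replicate numbers are not stated to pair samples. Deviations of log2 CPM from the genotype mean were correlated over genes between same-numbered samples. The values were -0.16 to 0.13 in BM stem progenitors, 0.15 to 0.29 in BM erythroid progenitors and -0.08 to 0.05 in LN CD8 T cells. With the replicate number as a block, Cish in BM B lineage cells became called (1.60, adjusted p = 0.0287) and Socs3 in LN CD4 T cells lost its call (-0.996, adjusted p = 0.352). Depth limits the sums on few UMIs most, which are those of WT and Y665H marrow and of the shallow LN libraries.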
